A study of Homo sapiens with 8 samples.

Results

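LINC genes are long intergenic noncoding RNA genes that were given a systematic number rather than a name for what they do. The LINC genes described here are the rows of the deposited table whose symbol is LINC followed only by digits and whose mean over all 8 libraries was at least 0.5 CPM, the normalized signal relative to library size. They were therefore chosen by a measured level, so their levels and the counts at this threshold are given as a description. This rule found 136 of the 431 LINC rows among 21077 rows. Of the other LINC rows, 206 were above 0 but under 0.5 CPM and 89 were at 0 in all libraries.

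The cells were HS578T, an established line of estrogen receptor-negative human breast cancer cells with a mesenchymal character. The hyperglycemia group was kept at 25 mM glucose for 48 hours (high glucose, n = 4), and the control group was kept at 5 mM glucose for 48 hours (low glucose, n = 4). By the study's methods, cells were first conditioned in low glucose and both groups then had serum-free medium. The comparison asks which transcripts differ after exposure to the higher glucose level. All libraries came from 1 cell line, and the labels do not say whether the replicates were separate cultures, so each p value reflects only how much these libraries vary, and that variation may be technical.

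Long noncoding RNAs are made by RNA polymerase II, capped and usually spliced, but they carry no long reading frame. Some act near the place where they are made, by changing transcription or chromatin at a neighboring gene, and others act away from it by binding proteins or microRNAs. Many are rare, are made in only some cell types and are turned over quickly. For most LINC genes no function has been settled, so the roles given below are limited to members with a well-described one.

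All 136 LINC genes matched a RefSeq gene of the GRCh38.p14 assembly (120 by symbol and 16 by an older symbol). LINC01291 and LINC01293 are separate rows of the table that match the same RefSeq gene, so the 136 rows are 135 RefSeq genes, and both rows rose, so that the 70 rises counted below are 69 RefSeq genes. RefSeq lists each of them as a long noncoding RNA. A total of 133 were found by identifier in GENCODE 44, where 124 are typed as long noncoding and 9 as pseudogenes. LINC01085, LINC01881 and LINC00888, described below, are among those typed as pseudogenes. The 136 LINC genes lie on 23 chromosomes, with 21 on chromosome 1 and 5 on the X chromosome. Libraries held an estimated 10244887 to 11956682 counts, and 1 count was worth 0.0867 to 0.118 CPM. Mesenchymal markers summed to 33188 to 34377 CPM in high glucose and 54872 to 59114 CPM in low glucose, and luminal keratins and receptors summed to 111 to 129 CPM in high glucose and 274 to 291 CPM in low glucose. ESR1, the estrogen receptor, averaged 0.181 CPM in high glucose and 0.141 CPM in low glucose, and the hepatocyte marker ALB reached at most 0.0901 CPM in any high glucose library and 0.236 CPM in any low glucose library. Endothelial markers summed to 6.21 to 7.80 CPM in high glucose and 1.95 to 2.77 CPM in low glucose, with PECAM1 and VWF past the test as higher in high glucose and CDH5 at 0 in all libraries. Leukocyte markers summed to 1.30 to 1.91 CPM in high glucose and 0.217 to 0.885 CPM in low glucose, with PTPRC past the test as higher and CD14 not past it. The part of these differences in the results was not tested.

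LINC genes were expressed at low levels. The median of their means over all libraries was 2.01 CPM, with a range of 0.520 to 70.9 CPM, against a median of 20.1 CPM over the 15570 genes tested. A total of 33 were under 1 CPM, 84 were from 1 to under 10 CPM, and 19 were at 10 CPM or more, while 10 exceeded the median tested gene. Replicates spread more at low levels. The median coefficient of variation was 26.8% in high and 38.8% in low glucose for LINC genes under 2 CPM, and 9.06% in high and 7.86% in low glucose for those at 10 CPM or more. Just inside the rule were LINC01311 with a mean of 0.520 CPM, LINC00957 with 0.526 CPM and LINC01232 with 0.528 CPM. Just outside were LINC01788 with a mean of 0.497 CPM, LINC01521 with 0.495 CPM and LINC01301 with 0.493 CPM.

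More LINC genes reached the threshold of the rule in high glucose, which follows in part from the choice of genes, since a gene could enter through 1 group alone. In the high glucose libraries 127 to 128 of the 136 reached 0.5 CPM and 0 were at 0, against 111 to 114 that reached 0.5 CPM and 3 to 6 at 0 in the low glucose libraries. A count was worth 0.0867 to 0.1002 CPM in high glucose and 0.108 to 0.118 CPM in low glucose libraries, and the part of this in the counts at 0 was not tested. The 136 genes held an estimated 7950 to 9106 counts in high glucose libraries and 6390 to 6930 in low glucose libraries. Over all 431 LINC rows, chosen by symbol alone, 147 to 158 reached 0.5 CPM and 270 to 284 were above 0 in high glucose libraries, against 117 to 123 and 223 to 229 in low glucose libraries. The same counts over all rows of the table were not made, so these do not set LINC rows apart from other rows. Of all tested genes with a mean of 0.5 to under 2 CPM, 35.3% were higher in high glucose and 16.7% lower (FDR under 0.05, limma). In RNA from whole cultures, fewer cells with a transcript and less of it per cell cannot be told apart. A group mean of at least 0.5 CPM was reached in both groups by 106, in high glucose only by 25 and in low glucose only by 5. The summed signal of the 136 genes was 803 ± 16.2 CPM in high glucose and 744 ± 9.79 CPM in low glucose (SD, n = 4 each). As a share of all signal in a library, they took 0.0783% ± 0.00219 in high glucose and 0.0612% ± 0.00108 in low glucose. The groups did not overlap in either measure. Mitochondrially encoded genes also differed, at 1.79% ± 0.147 of the signal in high glucose and 1.02% ± 0.0391 in low glucose, and their part in these shares was not tested.

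In CPM, the difference in summed signal was the balance of opposite differences. The 8 most abundant LINC genes, which held 35.2% of the signal of all 136, summed to 244 ± 5.74 CPM in high glucose and 301 ± 6.97 CPM in low glucose. The other 128 summed to 559 ± 12.3 CPM in high glucose and 443 ± 7.61 CPM in low glucose. Both differences were larger than the spread between replicates, in opposite directions. As a share of all signal in a library, the 8 most abundant took 0.0237% ± 0.000709 in high glucose and 0.0248% ± 0.000493 in low glucose, while the other 128 took 0.0545% ± 0.00162 in high glucose and 0.0364% ± 0.000907 in low glucose. The libraries of the 8 most abundant then overlapped, with shares of 0.0229% to 0.0245% in high glucose and 0.0242% to 0.0254% in low glucose.

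**Figure D1:**
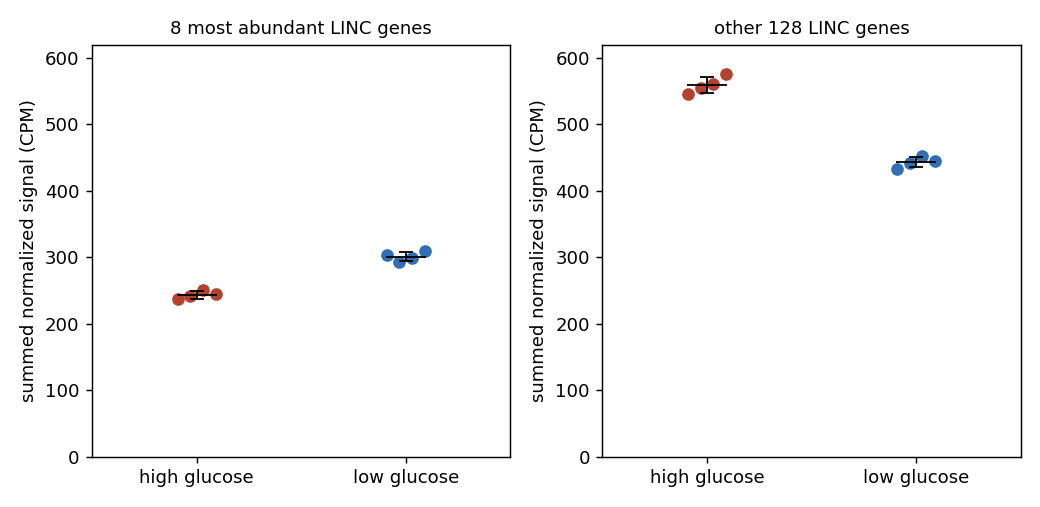
Summed normalized signal (CPM, linear axis from 0) of the 8 most abundant LINC genes (left panel) and of the other 128 (right panel), with high glucose left of low glucose. Points are libraries, and bars are the mean and SD (n = 4). The 8 most abundant averaged 244 CPM in high and 301 CPM in low glucose, and the other 128 averaged 559 CPM in high and 443 CPM in low glucose.

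Of the 136 LINC genes, 70 rose and 27 fell in high glucose, and 39 did not pass the test (limma on log2(CPM + 1), Benjamini-Hochberg FDR under 0.05 over all genes). In all, 71.3% of LINC genes passed, against 72.9% of all tested genes, but the shares differed at like levels. At a mean of 0.5 to under 2 CPM, 72.1% of LINC genes passed, against 52.0% of all tested genes. At 2 CPM or more, 70.6% of LINC genes passed, against 79.8% of all tested genes. The direction was uneven. A rise was seen in 51.5% of LINC genes and a fall in 19.9%, against 35.7% and 37.2% of all tested genes. The median log2 fold change was 0.39 for LINC genes (quartiles -0.21 and 0.90) and -0.00 for all tested genes. The median of the LINC genes was 0.17 with a pseudocount of 5 CPM, 0.26 with quantile normalization and 0.54 with libraries rescaled to the same total, where that of all genes was 0.20. At least a 2-fold change was reached by 28 rising and 7 falling LINC genes, where 8.57% of all genes rose and 8.48% fell that far. Of these LINC genes, 17 risers and 6 fallers had a group mean of at least 0.5 CPM in both groups. Another 11 risers reached that mean in high glucose only and 1 faller in low glucose only, changes that the choice of genes favored. In 88 of the 136 LINC genes the groups did not overlap, against 66.7% of all tested genes. The split depended on the scale. With libraries rescaled to the same total, 77 LINC genes rose and 17 fell, beside 7325 and 4348 of all genes, and with quantile normalization 61 rose and 34 fell, beside 5553 and 5671 of all genes.

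**Figure D2:**
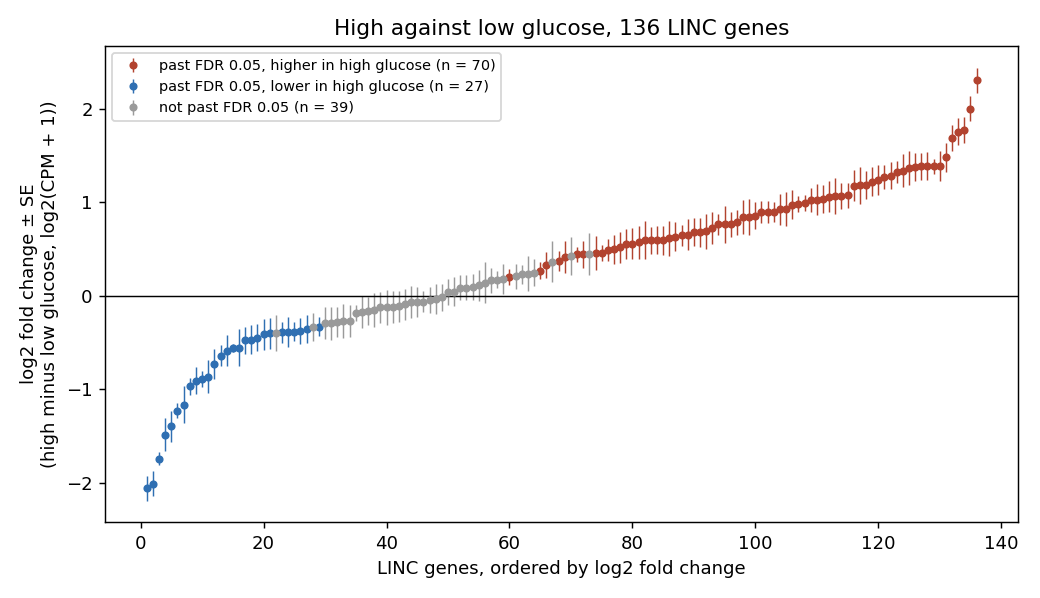
Log2 fold change of the 136 LINC genes in high against low glucose (from log2(CPM + 1) values), in ascending order, with the standard error from limma. Red points rose (n = 70), blue points fell (n = 27) and gray points did not pass FDR 0.05 (n = 39), and the values run from -2.06 to 2.30.

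The direction was then read by level. Among LINC genes with a mean from 0.5 to under 2 CPM, 37 of 68 rose (54.4%) and 12 fell (17.6%). At the same level 52.0% of all tested genes passed, with 35.3% higher and 16.7% lower, and their median log2 fold change was 0.20. Among LINC genes at 2 CPM or more, 33 of 68 rose (48.5%) and 15 fell (22.1%). At that level 79.8% of all tested genes passed, with 36.3% higher and 43.4% lower, and their median was -0.07. The share of falling LINC genes was therefore close to the share among all genes at low level and lower at higher level, and these shares are descriptions with no test between them. The tested rows that RefSeq lists as long noncoding RNAs under other names and with a mean of at least 0.5 CPM leaned the same way, with 194 of 437 higher (44.4%), 90 lower (20.6%) and a median log2 fold change of 0.30. Among protein-coding rows at that level, 35.9% were higher and 41.9% were lower.

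**Figure D3:**
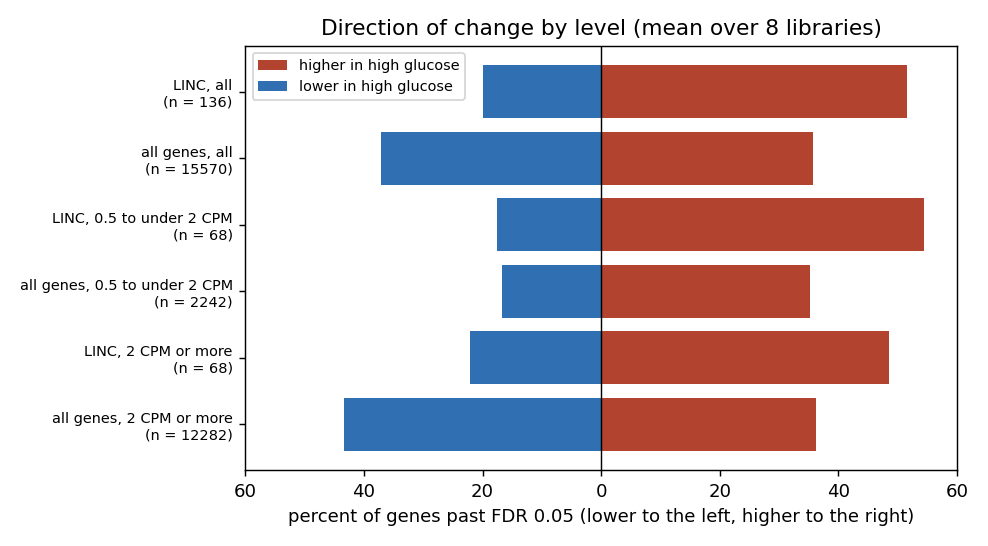
Percent of genes past FDR 0.05 that were lower (blue, to the left of 0) or higher (red, to the right of 0) in high glucose, for LINC genes and for all tested genes, over all levels and in 2 bands of the mean over 8 libraries. LINC genes have the longer red bar in each band, 54.4% against 35.3% under 2 CPM and 48.5% against 36.3% at 2 CPM or more.

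The rule admits genes that reach the level in 1 group alone, and such genes had to differ. Of the 25 that reached 0.5 CPM in high glucose only, 23 rose, and of the 5 that reached it in low glucose only, 4 fell. Among the 106 that reached it in both groups, 47 rose (44.3%) and 23 fell (21.7%), and the median of their log2 fold changes was 0.17. Of all tested genes, taken without this condition, 35.7% were higher and 37.2% were lower. The shares of all genes under the same condition were not counted. Of the genes named below, LINC02657, LINC00857, LINC01140, LINC00565 and LINC00638 reached 0.5 CPM in high glucose only. LINC01733 and LINC00893 reached it in low glucose only. The choice of genes favored these differences, so the changes and adjusted p values of these genes are given as a description.

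On the log2(CPM + 1) scale, LINC01085 and LINC00641 rose the furthest, and no function is described here for either. This scale shrinks the changes of low genes. With a pseudocount of 0.1 CPM, LINC02657 had a log2 fold change of 3.29 and LINC00857 of 2.55, against 2.72 for LINC01085 and 2.40 for LINC00641, and LINC01140, at 0 in low glucose, ranked above them all. LINC01085 (ENSG00000248698.6, chromosome 4, 14111968 to 14140052, plus strand) measured 13.3, 12.9, 14.8 and 16.1 CPM in high glucose, against 1.99, 2.36, 1.52 and 2.59 CPM in low glucose. Every high glucose library was far above every low glucose library, with a log2 fold change of 2.30 ± 0.14 (SE, adjusted p = 4.64e-10, limma). GENCODE types LINC01085 as a transcribed processed pseudogene, and it overlaps the RefSeq gene KLF17P2. LINC00641 (ENSG00000258441.1, chromosome 14, 21200079 to 21206900, minus strand) measured 10.8, 11.7, 10.02 and 12.3 CPM in high glucose, against 2.77, 1.69, 1.84 and 2.005 CPM in low glucose. Its groups were as clearly apart, with a log2 fold change of 2.0 ± 0.14 (adjusted p = 2.34e-09, limma).

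The largest falls on this scale among genes with a promoter entry were seen in LINC00511 and LINC01578. LINC00511 (ENSG00000227036.7, chromosome 17, 72598041 to 72640472, minus strand) measured 2.69, 2.91, 3.15 and 2.79 CPM in high glucose, against 15.6, 15.1, 16.9 and 11.3 CPM in low glucose. The low glucose libraries varied more than the high glucose libraries but stayed far above them, with a log2 fold change of -2.01 ± 0.13 (adjusted p = 1.30e-09, limma). LINC01578 (ENSG00000272888.6, chromosome 15, 92882843 to 92898747, plus strand) is now named CHASERR. In mouse, this RNA is made just upstream of Chd2, a chromatin remodeler gene, and keeps its expression down. Its transcript is nearly identical over 86.8% of its length to one of another annotated gene, ENSG00000289200, so reads may be shared. LINC01578 measured 19.9, 23.3, 19.6 and 22.9 CPM in high glucose, against 71.3, 71.0, 74.2 and 78.9 CPM in low glucose. The groups were apart by more than 40 CPM and the log2 fold change was -1.74 ± 0.07, with the smallest adjusted p of the LINC genes (3.86e-12, limma).

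The promoters of these 4 genes are shown because they had the largest rises and falls on this scale among genes with a promoter entry. Each is the RefSeq sequence from 250 bases before to 50 bases after the start of the gene (GRCh38.p14), read along the strand of the gene, with each CG dinucleotide in capitals.
LINC01085, chr4:14111718-14112017, plus strand: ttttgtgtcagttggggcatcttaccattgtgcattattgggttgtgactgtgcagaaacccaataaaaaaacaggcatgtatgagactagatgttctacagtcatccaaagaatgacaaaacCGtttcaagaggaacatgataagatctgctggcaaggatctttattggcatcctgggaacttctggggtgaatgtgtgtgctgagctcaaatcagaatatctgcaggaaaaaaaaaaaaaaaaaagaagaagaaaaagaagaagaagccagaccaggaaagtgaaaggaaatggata
LINC00641, chr14:21206851-21207150, minus strand: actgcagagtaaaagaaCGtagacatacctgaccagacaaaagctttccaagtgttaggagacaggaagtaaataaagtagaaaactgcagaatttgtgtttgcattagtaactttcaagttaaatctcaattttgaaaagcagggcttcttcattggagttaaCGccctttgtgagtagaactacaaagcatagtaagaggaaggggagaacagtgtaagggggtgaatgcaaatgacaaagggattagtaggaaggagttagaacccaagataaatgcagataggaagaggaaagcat
LINC00511, chr17:72640423-72640722, minus strand: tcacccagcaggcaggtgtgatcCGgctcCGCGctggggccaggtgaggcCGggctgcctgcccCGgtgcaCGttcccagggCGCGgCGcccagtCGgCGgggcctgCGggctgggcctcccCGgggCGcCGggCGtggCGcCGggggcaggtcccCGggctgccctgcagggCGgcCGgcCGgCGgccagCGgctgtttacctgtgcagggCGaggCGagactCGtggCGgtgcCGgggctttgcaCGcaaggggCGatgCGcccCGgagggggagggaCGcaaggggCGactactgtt
LINC01578, chr15:92882593-92882892, plus strand: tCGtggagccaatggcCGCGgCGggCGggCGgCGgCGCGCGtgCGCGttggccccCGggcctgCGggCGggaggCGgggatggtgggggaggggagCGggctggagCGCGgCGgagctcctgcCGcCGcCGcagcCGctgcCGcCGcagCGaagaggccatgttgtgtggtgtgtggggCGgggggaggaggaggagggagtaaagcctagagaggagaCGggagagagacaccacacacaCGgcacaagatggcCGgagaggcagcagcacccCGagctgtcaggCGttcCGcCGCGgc

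The promoters of the risers LINC01085 and LINC00641 were both 39.0% G or C and held 1 and 2 CG dinucleotides, while those of the fallers LINC00511 and LINC01578 were 78.0% and 74.7% G or C and held 35 and 36. The same lean was seen in a weaker form over the 101 LINC genes with a promoter entry. The median was 56.5% G or C and 10.5 CG dinucleotides for 54 that rose, 61.0% and 14.5 for 18 that fell, and 59.3% and 13 for 29 that did not pass the test. Over all 101 the median was 59.3%, against 58.3% for all 27305 promoters. These medians are a description with no test.

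Motifs of stress and growth responses were then searched on both strands of the same promoters, since glucose level bears on both. The AP-1 site TGANTCA was found in 15 of 101 LINC promoters (14.9%), against 7.76% of all promoters. It was in 6 of the 54 that rose and 4 of the 18 that fell, and the others were in promoters of genes that did not pass the test. The cAMP response element TGACGTCA was in 2.97% of LINC promoters against 1.98% of all, the E-box CACGTG in 4.95% against 7.43%, the ATF4 composite core TGATGNAA in 1.98% against 3.67%, and the unfolded protein response core TGACGTGG in 0.99% against 0.795%. The ER stress element, CCAAT and CCACG with 9 bases between them, was in 0 of 101 LINC promoters and in 0.0806% of all. None of the 4 promoters shown held any of these motifs. No motif contains the letters of another outside the 9 free bases.

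The other large rises came from genes at different levels. LINC02657, now named LASTR, is known in breast cancer cells as a hypoxia-induced RNA that binds the splicing factor SART3. It measured 3.73, 3.41, 2.86 and 2.88 CPM in high glucose, against 0.332, 0.112, 0.325 and 0.236 CPM in low glucose, where it was at a few counts per library. The log2 fold change on this scale was 1.75 ± 0.14 (adjusted p = 2.24e-08, limma). LINC00205 on chromosome 21 (45288052 to 45297354, plus strand) was the most abundant of the large risers and measured 37.7, 36.9, 41.9 and 33.5 CPM in high glucose, against 13.5, 14.4, 13.98 and 13.0 CPM in low glucose. Its log2 fold change was 1.38 ± 0.08 (adjusted p = 2.84e-10, limma). Both rose in every library by more than the spread between replicates.

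LINC00968 averaged 8.0 ± 0.407 CPM in high glucose and 1.82 ± 0.408 CPM in low glucose (SD, n = 4 each), with a log2 fold change of 1.68. LINC00857 averaged 3.10 ± 0.337 CPM in high glucose and 0.484 ± 0.252 CPM in low glucose, with a log2 fold change of 1.48. In both, the lowest high glucose library was above the highest low glucose library. The remaining members of the 10 largest rises share sequence with other genes, so their reads may be split or mixed. LINC01106 averaged 11.4 ± 0.214 CPM in high glucose and 2.66 ± 0.626 CPM in low glucose, with a log2 fold change of 1.77. Its transcripts match those of LINC01123, which averaged 1.98 ± 0.379 CPM in high glucose and 1.202 ± 0.485 CPM in low glucose, and it overlaps the coding gene LIMS4. LINC00632, the host gene from which the circular RNA CDR1as is made, averaged 9.90 ± 1.33 CPM in high glucose and 3.21 ± 0.689 CPM in low glucose, with a log2 fold change of 1.38. The circular form cannot be told from the linear one in a gene-level table. LINC00342 averaged 4.05 ± 0.679 CPM in high glucose and 0.950 ± 0.400 CPM in low glucose, and LINC00863 averaged 3.69 ± 0.402 CPM in high glucose and 0.810 ± 0.271 CPM in low glucose, with log2 fold changes of 1.39 and 1.38.

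LINC01140 was at 0 in every low glucose library. It measured 1.06, 1.002, 1.62 and 1.44 CPM in high glucose, against 0, 0, 0 and 0 CPM in low glucose. The 4 low glucose libraries together would have left a level of up to 0.0843 CPM undetected (3 counts over the group), so it was at least 15.2-fold higher in high glucose. This limit covers counting error only. The gene met the rule through high glucose alone, so its direction followed from the choice of genes, and the fold is a description. LINC01140 shares 84.2% of a transcript with another annotated gene, ENSG00000267561, so the source of its reads is uncertain. No other LINC gene was at 0 in all libraries of a group.

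LINC01881 had the largest fall on the log2(CPM + 1) scale, while with a pseudocount of 0.1 CPM LINC01733 fell further (log2 fold changes of -2.38 for LINC01881 and -2.48 for LINC01733). LINC01881 measured 2.12, 2.93, 3.28 and 2.33 CPM in high glucose, against 13.3, 13.9, 16.0 and 13.6 CPM in low glucose, and the log2 fold change was -2.06 ± 0.13 (adjusted p = 9.20e-10, limma). Most of its transcript (92.2%) is nearly identical to a transcript of FBXO25, so the source of its reads is uncertain. LINC00662 (chromosome 19, 27790493 to 27793940, minus strand) measured 15.9, 15.5, 14.3 and 17.8 CPM in high glucose, against 39.3, 35.8, 38.1 and 40.4 CPM in low glucose, with a log2 fold change of -1.23 ± 0.08 (adjusted p = 9.20e-10, limma). The groups were far apart in both genes.

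LINC01239 and LINC01733 were under 1 CPM in high glucose, at 0.626 ± 0.238 and 0.448 ± 0.190 CPM in high glucose, against 3.59 ± 1.03 and 2.82 ± 0.592 CPM in low glucose. Their log2 fold changes were -1.48 and -1.40. LINC01133, which is known from colorectal cancer cells to bind the splicing factor SRSF6, averaged 10.9 ± 0.984 CPM in high glucose and 22.1 ± 1.28 CPM in low glucose, with a log2 fold change of -0.97. It overlaps the coding gene SLAMF9. LINC00960 averaged 12.1 ± 0.363 CPM in high glucose and 23.2 ± 2.08 CPM in low glucose, with a log2 fold change of -0.89. LINC02241 averaged 4.202 ± 1.0 CPM in high glucose and 8.62 ± 0.482 CPM in low glucose, with a log2 fold change of -0.91. LINC02193 averaged 0.778 ± 0.528 CPM in high glucose and 2.89 ± 0.560 CPM in low glucose, with a log2 fold change of -1.16, and shares transcript sequence with another gene. No library of 1 group reached the range of the other in these 6 genes.

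**Figure D4:**
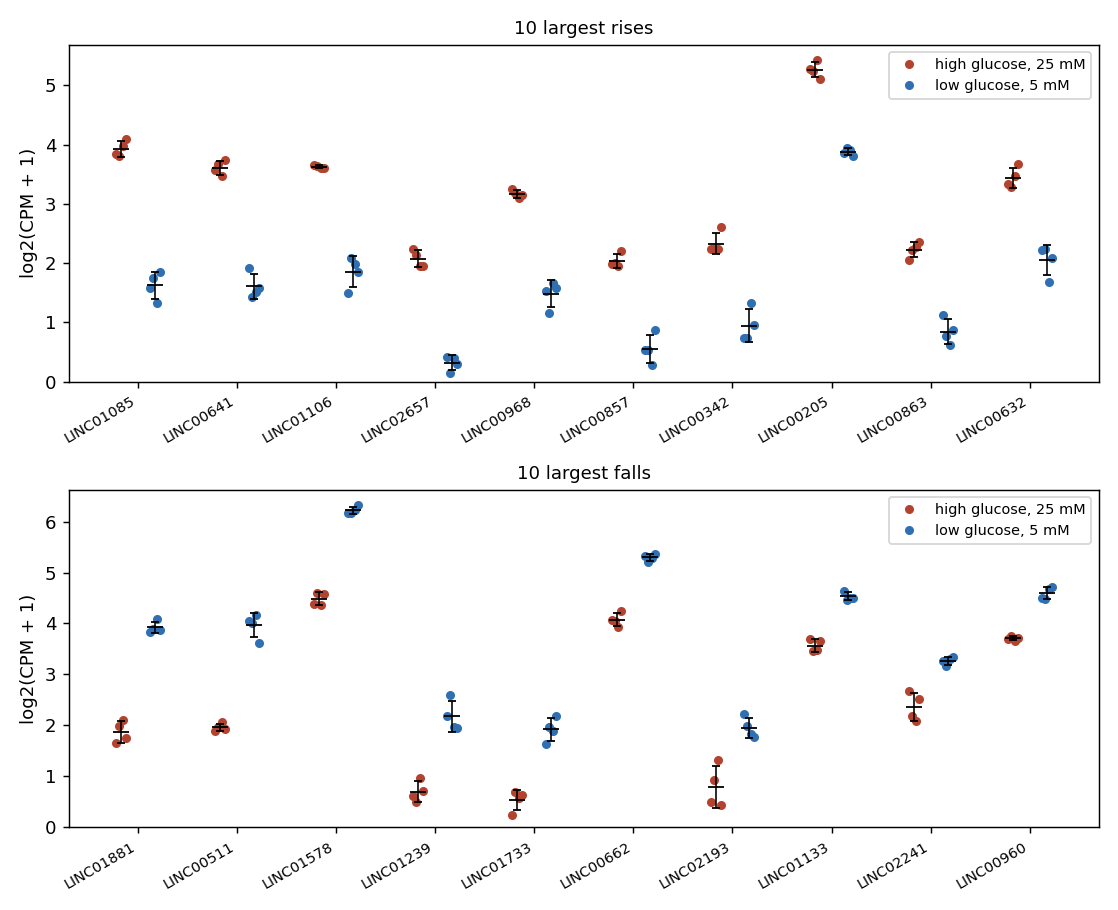
Level in each library, as log2(CPM + 1), of the 10 LINC genes with the largest rises (upper panel) and the 10 with the largest falls (lower panel) among those past FDR 0.05 with a group mean of at least 1 CPM and no overlap between groups. For each gene high glucose (red) stands left of low glucose (blue), and bars are the mean and SD (n = 4). The groups are apart in all 20 genes.

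The most abundant LINC genes by CPM moved in both directions. LINC00958 held 9.17% of the signal of all 136 and measured 54.9, 58.0, 58.9 and 56.9 CPM in high glucose, against 84.0, 80.3, 86.7 and 87.6 CPM in low glucose. It fell by 0.56 on the log2 scale (SE 0.05, adjusted p = 3.12e-08, limma), with tight and separate groups. LINC01444 averaged 34.0 ± 3.14 CPM in high glucose and 16.6 ± 1.66 CPM in low glucose, a log2 fold change of 0.99, and its transcript is also nearly identical to one of LINC02697. LINC01578, LINC00662 and LINC00205, described above, were also among the 8.

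The remaining 3 of the 8 had smaller differences, and their calls depended on the settings. LINC01419 measured 26.4, 28.0, 35.2 and 33.1 CPM in high glucose, against 30.1, 25.4, 26.0 and 26.4 CPM in low glucose, with overlapping groups (log2 fold change 0.17 ± 0.09, adjusted p = 0.0983, limma). It passed the test without high glucose replicate 1 (adjusted p = 0.0276, limma) or low glucose replicate 1 (adjusted p = 0.0482, limma). It also passed with libraries rescaled to the same total (log2 fold change 0.41, adjusted p = 8.26e-04, limma) or the same median (0.26, adjusted p = 0.0186, limma) and with quantile normalization (0.27, adjusted p = 0.0189, limma). LINC01184 averaged 22.4 ± 2.98 CPM in high glucose and 25.5 ± 1.40 CPM in low glucose (log2 fold change -0.18 ± 0.09, adjusted p = 0.0756, limma), and it passed the test without high glucose replicate 3 (adjusted p = 0.0173, limma), while its sign turned with the libraries rescaled to the same total. LINC00888, now named SNHG33, is a host of small nucleolar RNAs, which guide the modification of other RNAs. It averaged 24.4 ± 1.04 CPM in high glucose and 21.2 ± 2.57 CPM in low glucose (log2 fold change 0.20 ± 0.09, adjusted p = 0.0454, limma). The groups overlapped, and the call was lost when any library other than low glucose replicate 2 was left out (adjusted p = 0.0521 to 0.154, limma).

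A CPM value grows with the length of a transcript, so levels between genes were compared per kilobase of annotated exon. By that measure the order among the 8 was LINC00888 at 54.2, LINC01419 at 18.95, LINC01444 at 18.9, LINC00958 at 12.3, LINC01578 at 7.37, LINC00205 at 3.35, LINC01184 at 1.45 and LINC00662 at 0.818 CPM per kilobase. LINC00888 has only 421 bases of annotated exon, which raises this measure. LINC00662 has 33198 bases of GENCODE exon, far more than its RefSeq span (27790493 to 27793940) holds, which lowers its value. Its last place in the order rests on that length. Exon length ran from 143 to 33198 bases over the 133 LINC genes with a GENCODE entry, with a median of 4125 bases.

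The 6 LINC genes at 2 CPM or more with the smallest changes were LINC00174, LINC01119, LINC00843, LINC00520, LINC00882 and LINC02154. Their log2 fold changes ran from -0.06 to 0.04 with standard errors of 0.11 to 0.16, and all had overlapping groups. LINC02154, for example, measured 8.93, 11.2, 10.4 and 12.8 CPM in high glucose, against 10.3, 11.1, 12.8 and 10.97 CPM in low glucose. For each of the 6 the sign turned under at least 1 other scaling of the libraries, so no direction is given.

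Some LINC genes with a described role were outside the largest changes, and those named here were chosen after their values were seen. All of those named here for a role rose, so they do not represent LINC genes with a described role. LINC01578 and LINC01133, whose roles are given above, fell. LINC00565, now SWINGN, which is known to bind the SWI/SNF chromatin remodeling complex, measured 2.08, 1.30, 2.58 and 2.79 CPM in high glucose, against 0.443, 0.112, 0.325 and 0.118 CPM in low glucose (log2 fold change 1.33 ± 0.18, adjusted p = 5.82e-06, limma). It overlaps the coding gene C13orf46 on the same strand, so the source of its reads is uncertain. LINC01089, also called LIMT, which epidermal growth factor represses in mammary cells, measured 2.77, 2.28, 1.93 and 3.08 CPM in high glucose, against 0.111, 1.12, 0.758 and 0.354 CPM in low glucose (log2 fold change 1.18 ± 0.20, adjusted p = 6.33e-05, limma). Its sequence is shared in part with the neighboring gene RHOF, and it overlaps the coding gene SETD1B. Both LINC00565 and LINC01089 were higher in every high glucose library.

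LINC01137, now LITATS1, which TGF-beta induces in epithelial cells, averaged 1.73 ± 0.173 CPM in high glucose and 0.587 ± 0.0933 CPM in low glucose, with a log2 fold change of 0.78. LINC02001, now SNHG30 and host of a small nucleolar RNA, averaged 6.08 ± 1.05 CPM in high glucose and 2.35 ± 0.176 CPM in low glucose, with a log2 fold change of 1.07. LINC00472, which has been linked to outcome in breast cancer, averaged 3.80 ± 0.425 CPM in high glucose and 1.34 ± 0.539 CPM in low glucose, with a log2 fold change of 1.06, and part of its sequence matches a transcript of OGFRL1. That gene also rose, from 18.0 CPM in low glucose to 55.1 CPM in high glucose (log2 fold change 1.56). The part of shared reads in the rise of LINC00472 was not tested. In LINC01137, LINC02001 and LINC00472 the groups did not overlap.

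LINC00638, now VESTAR, which is named for its link to the stability of VEGFC mRNA, averaged 0.920 ± 0.204 CPM in high glucose and 0.367 ± 0.200 CPM in low glucose, with a log2 fold change of 0.50 (adjusted p = 0.0107, and 0.0898 with quantile normalization, limma). LINC00346, now PRECSIT, which was described in squamous cell carcinoma of the skin, averaged 21.2 ± 1.17 CPM in high glucose and 15.3 ± 1.06 CPM in low glucose, with a log2 fold change of 0.44. Of the 16 LINC genes that RefSeq now lists under another name, 10 rose, 4 fell and 2 did not pass the test.

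Position relative to other genes was examined next, since some long noncoding RNAs act on a neighbor. The nearest tested protein-coding gene lay at a median distance of 38884.5 bases. In 74 of 136 pairs both genes passed the test, 41 with the same sign and 33 with opposite signs. Beside the 70 LINC genes that rose, the neighbor was higher in 34 and lower in 19, and beside the 27 that fell it was higher in 14 and lower in 7. Higher neighbors thus outnumbered lower ones beside risers and fallers alike. Of all tested genes 72.9% passed, with 35.7% higher and 37.2% lower. Across the 136 pairs, which are not independent and share all libraries, the log2 fold changes had a Pearson r of 0.16 and a Spearman rho of 0.10. Both coefficients differed with distance, with no test between the distance groups. Over the 9 pairs that overlap, r was -0.59 and rho -0.73, with 1 pair of the same sign and 4 of opposite signs among those where both passed. Over the 29 pairs within 10 kb without overlap, r was 0.13 and rho 0.14, with 11 of the same sign and 10 of opposite signs. Over the 39 pairs more than 100 kb apart, r was 0.45 and rho 0.38, with 14 of the same sign and 6 of opposite signs. These values are descriptions, with few pairs in the first group.

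**Figure D5:**
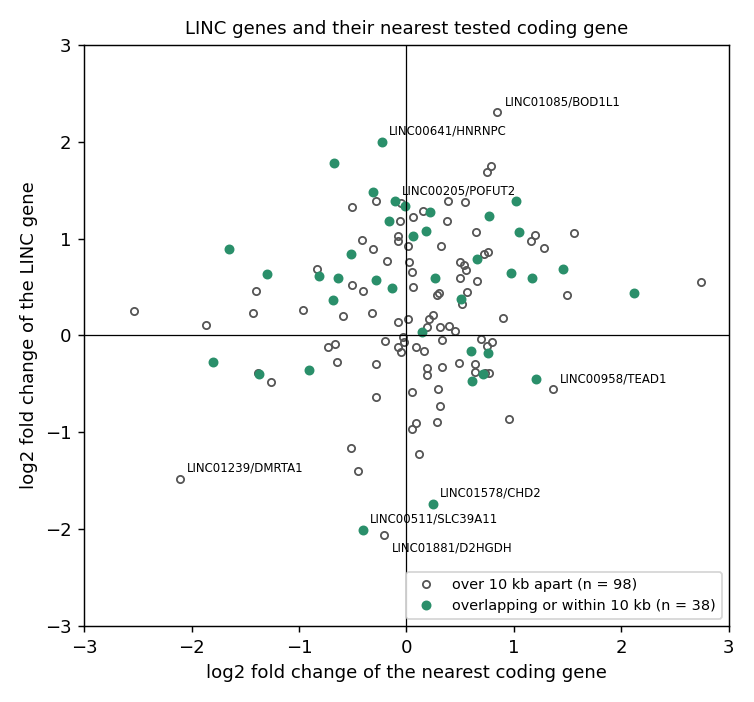
Log2 fold change (high minus low glucose) of each LINC gene against that of its nearest tested protein-coding gene. Filled points overlap or lie within 10 kb (n = 38) and open points lie farther apart (n = 98). The points fill all 4 quadrants (Pearson r 0.16 over 136 pairs).

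Several neighbors of the LINC genes with large changes are well known. CHD2, 1577 bases from LINC01578, averaged 176 ± 8.78 CPM in high glucose and 148 ± 5.85 CPM in low glucose, with a log2 fold change of 0.25 ± 0.04 (adjusted p = 1.21e-04, limma), so it rose slightly where LINC01578 fell by 1.74 on the log2 scale. TEAD1, a transcription factor of the Hippo pathway 34797 bases from LINC00958, averaged 546 CPM in high glucose and 212 CPM in low glucose (log2 fold change 1.36), while LINC00958 fell. DMRTA1, 190460 bases from LINC01239, fell together with it and averaged 3.17 CPM in high glucose and 17.0 CPM in low glucose (log2 fold change -2.11). SLC39A11, a zinc transporter gene 5477 bases from LINC00511, averaged 9.01 CPM in high glucose and 12.3 CPM in low glucose (log2 fold change -0.41), a call that was lost with libraries rescaled to the same total (-0.19, adjusted p = 0.215, limma). SOX9, a transcription factor gene on the same chromosome that was chosen after its values were seen, averaged 52.7 ± 2.44 CPM in high glucose and 18.5 ± 1.97 CPM in low glucose.

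By the starts used for the RefSeq promoters, 8 LINC genes started within 1000 bases of a tested protein-coding gene on the opposite strand, an arrangement in which both may share a promoter. LINC00909 and ZNF407 both rose, by log2 fold changes of 0.65 and 0.97, and LINC01137 rose with ZC3H12A, an RNase gene of inflammation, by 0.78 and 0.66. LINC00893 and CXorf40A both fell, with log2 fold changes of -0.35 and -0.91, but the call of LINC00893 (adjusted p = 0.0483, limma) was lost without any 1 of its libraries except high glucose replicate 3 and low glucose replicate 4 (adjusted p = 0.0529 to 0.142). A transcript of LINC00893 is also nearly identical over 100% of its length to one of EOLA2-DT, so the source of its reads is uncertain. LINC01547 and FAM207A moved apart, at 0.63 and -1.30. LINC00205, 157 bases from the start of POFUT2, a fucosyltransferase gene, rose by 1.38 while POFUT2 was at -0.11 (125 CPM in high glucose and 136 CPM in low glucose, adjusted p = 0.0186, limma), and at 0.13 with libraries rescaled to the same total. LINC00476 rose by 1.07 beside ERCC6L2 at 0.18, which did not pass the test (adjusted p = 0.114, limma). LINC02202, whose span begins 567 bases from that of EBF1, is not among the 8 because the start of the EBF1 promoter lies farther in. Its log2 fold change was 0.37 (adjusted p = 0.144, limma), beside -0.69 for EBF1. LINC01184 and LINC00843 did not pass the test, beside SLC12A2 at 0.76 and PARG at 0.44, which rose. SLC12A2 encodes a sodium, potassium and chloride cotransporter, and PARG a glycohydrolase that removes poly(ADP-ribose).

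Despite their name, 75 of the 136 LINC genes overlap another RefSeq gene, of which 35 rose and 17 fell, and 18 overlap a protein-coding gene, of which 8 rose and 5 fell. LINC01106, LINC01133, LINC01184, LINC00843, LINC00476, LINC01089, LINC01547 and LINC00565, named above, are among the 18. For these libraries it is not stated whether reads were assigned by strand, so reads of overlapping genes cannot be told apart. Of the 61 without any overlap, 35 rose and 10 fell. In 42, a transcript is nearly identical to one of another gene (at least 95% identity over at least 50% of its length), and the other 94 gave 51 rises and 17 falls. Only the 133 with a GENCODE entry could be searched, so LINC00842, LINC01138 and LINC01667 are among the 94 without a search. Rises made up 57.4% and falls 16.4% of the genes without overlap, and 54.3% and 18.1% of the 94 in which no near-identical transcript was found.

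The LINC genes that fell had a median of 10 separate exon blocks and a RefSeq span of 18.7 kb, those that rose 4 blocks and 12.0 kb, and those that did not pass the test 6.5 blocks and 19.6 kb. Median exon length was 4602 bases for those that fell, 4154 bases for those that rose and 3791 bases for those that did not pass the test. These medians are descriptions with no test.

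Long noncoding RNAs with established names were counted for comparison. Of 38 listed, 30 were tested, of which 19 rose, 5 fell and 6 did not pass the test, with a median log2 fold change of 0.61. NEAT1, the scaffold of paraspeckles, averaged 507 ± 17.5 CPM in high glucose and 259 ± 30.5 CPM in low glucose. NORAD, which binds Pumilio proteins, averaged 513 ± 17.0 CPM in high glucose and 212 ± 10.8 CPM in low glucose. TUG1 averaged 266 ± 15.8 CPM in high glucose and 78.9 ± 3.22 CPM in low glucose, and MALAT1, a nuclear speckle RNA, averaged 225 ± 15.0 CPM in high glucose and 175 ± 41.6 CPM in low glucose. GAS5, a snoRNA host whose RNA is degraded during translation, fell to 114 ± 7.56 CPM in high glucose, against 518 ± 71.4 CPM in low glucose. These 5 had the highest means of the list, and each passed the test (log2 fold changes of 0.97, 1.27, 1.74, 0.39 and -2.17), although the call of MALAT1 was lost with robust empirical Bayes moderation (adjusted p = 0.0765, limma).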

How the data were processed

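RNA of 8 HS578T libraries was sequenced after 48 hours at 25 or 5 mM glucose (n = 4 each). The authors deposited 1 table of normalized signal for 21077 genes. In the submitters' processing notes, edgeR and the hg38 build are named. Since the columns sum to 1017015 to 1229021, the values were read as CPM scaled by TMM factors. The study's methods, under a heading that also covers cultured cells, describe a stranded kit and TopHat on another build for human tumors. Whether these libraries were made so is not stated, nor is a counting program. Only 71.3% to 73.7% of values below 50 counts were whole within 0.005, so no count model was used. TMM assumes that most genes do not change.

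The fit covered 15570 genes, all 136 LINC genes included, that reached 0.5 CPM in 2 or more libraries. It was made with limma (version 3.58.1 under R version 4.3.3) on log2(CPM + 1) with a variance trend, as high minus low glucose, and p values were adjusted over all genes. This scale understates changes of low genes. The fit was checked on simulated data. Groups came from the treatment labels. No pair of replicates was alike within sampling noise (chi-square per gene of estimated counts 1.61 to 5.43). Positions and promoters came from RefSeq (GRCh38.p14), exon lengths from GENCODE 44 and near-identical transcripts from blastn 2.17.0. The members and lists were chosen with earlier results of these data known. Genes named by rule were the 10 largest rises and falls (FDR under 0.05, at least 1 CPM in a group, no overlap), the 8 most abundant, the 6 smallest changes at 2 CPM or more, those at 0 in a group, the 3 on either side of the 0.5 CPM limit and the 5 most abundant other RNAs. Other genes were named outside these rules, for a described role after their values were seen, or for position or shared sequence. Alternatives were other pseudocounts, filters, scalings, limma settings, a replicate block and leaving out each library. Depth was 10244887 to 11956682 estimated counts per library.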

Additional observations from a re-analysis of the deposited data

Results flagged for a closer look

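LINC00342 in high glucose replicate 4 measured 5.07 CPM and stood apart from the other 3 high glucose libraries, which measured 3.71, 3.71 and 3.72 CPM. Its gap to the nearest of them was 0.989 of the range of the group. Chance marks about 1 in 20 such groups. Low glucose libraries measured 0.664 to 1.52 CPM, so the groups were apart with or without this library.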

How the results depend on the processing

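No LINC gene that passed the test turned its sign under any setting tried. The median log2 fold change of the 136 LINC genes, 0.39, was 0.51, 0.46 and 0.17 with pseudocounts of 0.1, 0.5 and 5 CPM, 0.46 with voom weights, 0.44 when 4 libraries had to reach 1 CPM (107 LINC genes), 0.26 with quantile normalization and 0.46 with libraries rescaled to the same median. With libraries rescaled to the same total it was 0.54, beside a shift of all genes by 0.20, and 17 rather than 27 LINC genes fell. Without LINC genes that overlap another gene, 45 passed, of which 35 rose and 10 fell. With 1 library left out the median was 0.34 to 0.40, and 4 to 9 of the 97 calls were lost and 0 to 4 gained. With a replicate block 93 calls were kept and 4 lost, but the replicate numbers did not pair the libraries (correlations of same-numbered deviations -0.03 to 0.11). RefSeq lists no LINC gene as protein coding, so leaving such genes out changed nothing.

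Among the genes with small changes, signs turned as follows. With the same total, log2 fold changes were 0.051 for LINC01184, 0.18 for LINC00174, 0.13 for LINC01119, 0.17 for LINC00520 and 0.16 for LINC02154. With the same median they were 0.057 for LINC00174, 0.029 for LINC01119, 0.037 for LINC00520 and 0.025 for LINC02154. With quantile normalization they were -0.031 for LINC00843 and -0.12 for LINC00882. With 1 library left out they ran from -0.096 to 0.10 for LINC00174, from -0.12 to 0.059 for LINC01119, from -0.039 to 0.12 for LINC00843, from -0.12 to 0.074 for LINC00520, from -0.057 to 0.14 for LINC00882 and from -0.14 to 0.020 for LINC02154. The cause was not tested. LINC01419 passed the test under all 3 scalings. Low levels limit precision, since 1 count is 0.0867 to 0.118 CPM.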
